A study of Mus musculus with 28 samples.

Results

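The carboxylesterases are serine hydrolases that cleave esters of drugs, food chemicals and lipids. The 10 described here (Ces1b, Ces1c, Ces1d, Ces1e, Ces1f, Ces1g, Ces2a, Ces2c, Ces2e and Ces3a) were chosen by gene symbol as members of the family that clears ester drugs such as aspirin, and all 10 were found in each of the 3 deposited tables, which list 54163 genes for liver and 54189 for muscle at 40 d and 54501 for both tissues at 24 h. The rule used no measured value. Another 10 carboxylesterase symbols in the same tables (Ces1a, Ces1h, Ces2b, Ces2d-ps, Ces2f, Ces2g, Ces2h, Ces3b, Ces4a and Ces5a) served for comparison. The tables hold RNA levels, and hydrolysis of aspirin was not measured in them.

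All the mice were male C57BL/6J animals homozygous for the ob allele (Lepob/Lepob), which lack functional leptin, and all had been on the AMLN diet from 4 weeks of age for 20 weeks. This diet, rich in fat, fructose and cholesterol, is used with the ob allele to model fatty liver with inflammation (NASH). The combination mice received daily intraperitoneal aspirin (acetylsalicylate, 3.0 mg/kg) together with trimetazidine (5.0 mg/kg), and the vehicle mice the solvent. At 40 d there were 6 combination and 6 vehicle libraries from liver and the same numbers from muscle. The combination mice carry the numbers 4_5 and 5_1 to 5_5, and the vehicle mice 2_1, 2_3, 2_4, 2_5, 3_2 and 6_1. At 24 h after injection there was 1 combination and 1 vehicle library of each tissue. Groups with either drug alone were not analysed here. No first digit of a mouse number occurs on both sides, so whatever goes with that digit and the treatment cannot be told apart. The labels call the muscle by that word only, and leptin is missing in every group, so no lean animal serves as a baseline.

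Most mouse carboxylesterases sit in the lumen of the endoplasmic reticulum, where a catalytic serine takes up the acyl part of the ester and water releases it. The liver holds the most of them. In humans, CES2 and plasma esterases are known to hydrolyse aspirin to salicylate, while mice have several Ces1 and Ces2 copies, including a Ces1 enzyme that is secreted into the blood. Some members also hydrolyse stored triacylglycerol in liver and fat.

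All 10 genes lie on chromosome 8 (GRCm38) in 2 clusters. The 6 Ces1 members stand on the minus strand between 93056728, the start of Ces1b, and 93337308, the end of Ces1g. Ces2a, Ces2c, Ces2e and Ces3a stand on the plus strand between 104734003, the start of Ces2a, and 105058413, the end of Ces3a. The identifiers, coordinates and strands in the deposited tables were those of GENCODE vM21 for 10 of 10. The following segments were read from the GENCODE transcripts and hold the codon of the catalytic serine, in capitals, with 12 bases on each side. They are shown because the enzymes act on esters through this residue, for 5 members that differ in the bases beside it. All lie in exon 5.
Ces1b (chr8:93071882-93071908, minus strand): gtctttgggtcaTCAgcaggaggtgtc
Ces1c (chr8:93123115-93123141, minus strand): atctttggagagTCAtcagggggtatc
Ces1d (chr8:93187758-93187784, minus strand): atctttggagagTCAgcaggaggtttc
Ces2c (chr8:104850762-104850788, plus strand): atttttggcgagTCTgcaggtggcaca
Ces3a (chr8:105051580-105051606, plus strand): atcttcggtaacTCTgctggaggcatt

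The ends of the coding sequences show which enzymes carry the last part of the signal for staying in the endoplasmic reticulum. Each line gives the last 27 coding bases with the stop codon, and the last 4 codons before the stop are in capitals. In 8 of the 10 the final pair of codons encodes glutamate and leucine, the end of the known retention signal of this family. Ces1b and Ces1c lack this pair. Ces3a has the pair after the codons CCA and GAG, while the other members with it have CAT or CAC as the first codon in capitals. Whether Ces3a carries the full signal was not tested. Ces1c is the plasma carboxylesterase of rodents.
Ces1b (chr8:93056887-93056913, minus strand): cctactgagcacAGAGAACACAAAtga
Ces1c (chr8:93099165-93099191, minus strand): cctactgaacacACAGAACACAAAtga
Ces1d (chr8:93166255-93166281, minus strand): tcccacagggaaCATGTTGAGCTCtga
Ces1e (chr8:93201404-93201430, minus strand): ctgccgacagaaCACACTGAGCTGtga
Ces1f (chr8:93256429-93256455, minus strand): ccccagccatacCACAATGAGCTGtga
Ces1g (chr8:93302905-93302931, minus strand): tcccatagggaaCATGTTGAACTGtga
Ces2a (chr8:104741390-104741416, plus strand): tctcaggacaagCATGCAGAGCTGtag
Ces2c (chr8:104854238-104854264, plus strand): tctcaggacaagCACAGGGAGCTTtag
Ces2e (chr8:104933688-104933714, plus strand): tctcaggagaggCACAAAGAGTTGtag
Ces3a (chr8:105058077-105058103, plus strand): agcaggaaagttCCAGAGGAGCTCtga

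Some members are much alike in sequence, which bears on how far their reads can be told apart. Ces1b and Ces1c were 91.2% identical over their aligned coding bases, Ces2c and Ces2e 84.0%, Ces2a and Ces2e 83.3%, and Ces1d and Ces1g 81.6%. Pairs from different subfamilies were less alike, down to 62.6% for Ces1e and Ces2c. Stretches of 50 bases, a length chosen for this comparison, were then looked for in the transcripts of other genes. Longer reads could match other genes less often. Of the distinct stretches in the transcripts of Ces2c, 36.1% also occur in another gene, mostly the pseudogene Ces2d-ps (32.7%). For Ces3a the share was 25.6%, all of it with Ces3b, and for Ces2a 17.3%, mostly with Gm7208. It was 13.0% for Ces1c and 11.6% for Ces1b, which share mostly with each other, and between 0.90% (Ces1f) and 3.30% (Ces2e) for the remaining members. No source used here gives how reads that match several genes were treated, so the division of reads within these pairs is uncertain.

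At 40 d, reads on genes numbered 16.8 to 18.9 M per combination liver and 17.2 to 18.8 M per vehicle liver. The muscles held 16.1 to 19.9 M at 40 d, and the 4 libraries at 24 h held 16.1 to 17.4 M. The defining markers fitted the tissue labels: the summed level of 6 hepatocyte markers was 21462.3 to 38833.9 FPKM in combination livers and 31568.6 to 37235.4 FPKM in vehicle livers, and that of 6 muscle fibre markers was 33852.7 to 50222.5 FPKM in combination muscles and 29886.3 to 56654.8 FPKM in vehicle muscles. In the 12 livers the fibre markers summed to at most 4.00 FPKM. Some libraries stood apart. Livers 4_5 and 5_5 of the combination group had low levels of most members, and vehicle muscle 3_2 held liver transcripts. Fold changes that rest on these libraries are given with and without them. Values are FPKM (fragments scaled to exon length and library size), which are per length and so can be compared between genes. Fold changes set combination over vehicle after log2(FPKM + 1), a scale on which low genes appear to change less than they do.

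In the liver the 2 most abundant members were Ces1c and Ces1d. In combination livers Ces1c averaged 669.5 ± 142.7 FPKM and Ces1d 302.9 ± 125.1 FPKM (SD, n = 6), followed by Ces3a at 162.4 ± 94.5 FPKM, Ces1g at 94.2 ± 24.2 FPKM and Ces1f at 85.0 ± 26.7 FPKM. Ces2e at 67.1 ± 17.5 FPKM, Ces1e at 48.5 ± 15.5 FPKM, Ces2a at 33.6 ± 10.6 FPKM and Ces1b at 25.4 ± 6.37 FPKM came next, and Ces2c was last at 6.57 ± 3.15 FPKM. In this order the ranges over livers separated Ces1c from Ces1d and Ces1b from Ces2c, and the other neighbours overlapped. Vehicle livers held the members in the same order except that Ces1g (110.4 ± 14.2 FPKM) stood just before Ces3a (109.8 ± 32.4 FPKM). Among vehicle livers the ranges of Ces1d and Ces1g, of Ces2e and Ces1e, of Ces1e and Ces2a, and of Ces2a and Ces1b did not overlap, while those of Ces1c and Ces1d did. The summed level of the 10 members was 1495.1 ± 376.8 FPKM in combination livers and 1539.3 ± 203.4 FPKM in vehicle livers (SD, n = 6 each). Their reads made up 0.267% to 0.431% of the reads of a combination liver and 0.303% to 0.444% of those of a vehicle liver.

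**Figure D1:**
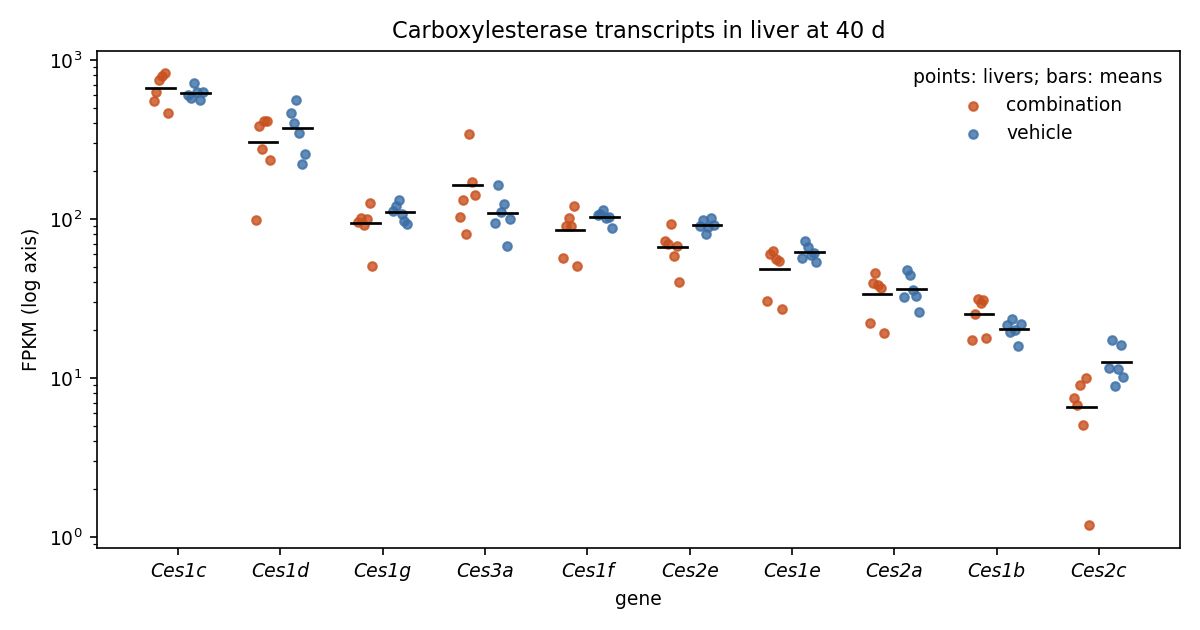
FPKM of the 10 carboxylesterases in liver at 40 d, on a log axis, with genes along the horizontal axis from the highest to the lowest vehicle mean. Each point is 1 liver (combination left, vehicle right, 6 each) and each bar a group mean. Ces1c is the highest in both groups, and the lowest single value is the 1.19 FPKM of Ces2c in a combination liver.

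The comparison at 40 d asked whether the RNA of these carboxylesterases differed between mice given daily aspirin with trimetazidine and mice given vehicle. None of the 10 members passed limma's moderated test at an adjusted p under 0.05, where 0.255% of all 10995 genes tested did (28 genes). Leaving out 1 library moved that count between 0 (combination 5_3 or vehicle 2_3) and 83 (combination 5_2), and no member was called in any of these fits. At an unadjusted p under 0.05 there were 2 of 10, Ces2c and Ces2e, both lower in combination livers, beside 13.2% of all genes in either direction and 7.35% in the lower direction. No member had groups that did not overlap, against 1.16% of all genes. By value, 7 members were lower and 3 higher in combination livers, with a median log2 fold change of −0.30, beside −0.003 over all genes, of which 51.0% were lower. limma voom on the recovered reads also called 0 members, with 2 at an unadjusted p under 0.05. The share of reads on mitochondrial genes also differed by group, at 3.73% to 4.41% in combination livers and 4.37% to 6.54% in vehicle livers, and its part in these values was not tested. Since this is bulk tissue, fewer hepatocytes and less RNA per hepatocyte cannot be told apart.

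The Ces2 enzymes are the mouse relatives of human CES2. Ces2c, which encodes an acylcarnitine hydrolase, had 1.19, 7.11 and 9.94 FPKM as the lowest, median and highest of the combination livers, against 8.86, 11.5 and 17.3 FPKM in the vehicle livers. All 6 combination livers lay below the vehicle mean, and the groups overlapped only because vehicle 2_4 (8.86 FPKM) lay below combination 5_2 and 5_4. The log2 fold change was −0.97 (SE 0.33, 95% interval −1.68 to −0.26), with an unadjusted p of 0.0113 and an adjusted p of 0.233 by limma. The exact permutation test over the 12 livers, two-sided, gave an unadjusted p of 0.00649. Without livers 4_5 and 5_5 the log2 fold change was −0.65 (limma adjusted p = 0.276). Over all alternatives it stayed between −1.15 and −0.65, and its adjusted p between 0.155 and 0.461.

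Ces2e, annotated as a pyrethroid hydrolase, had 40.1, 68.7 and 93.3 FPKM as the lowest, median and highest of the combination livers. The vehicle livers had 80.3, 90.8 and 101.7 FPKM. Combination 5_2, at 93.3 FPKM, was the 1 liver of its group above the vehicle mean, and the other 5 lay below the lowest vehicle liver. The log2 fold change was −0.49 (SE 0.16, 95% interval −0.83 to −0.15, unadjusted p = 0.00837, limma adjusted p = 0.207), and the exact permutation p was 0.0108. Without combination 5_2 it was −0.59 with the smallest adjusted p of any setting, 0.0747. Without 4_5 and 5_5 it was −0.36 (limma adjusted p = 0.313).

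Ces2a, which hydrolyses triacylglycerol and diacylglycerol in mice, had 19.1, 37.7 and 45.7 FPKM in combination livers and 25.9, 34.4 and 47.6 FPKM in vehicle livers as lowest, median and highest values. Livers 5_5 and 4_5, at 19.1 and 22.0 FPKM, lay below every vehicle liver, and the other 4 combination livers lay within the vehicle range. Its log2 fold change was −0.15 (SE 0.21, limma adjusted p = 0.793) and changed sign to 0.16 without those 2 livers. The 3 Ces2 members together summed to 107.3 ± 28.4 FPKM in combination livers, between 60.3 and 148.0, against 141.0 ± 13.5 FPKM in vehicle livers, between 127.9 and 163.9 (SD, n = 6 each). Within the subfamily the ratio of Ces2c to Ces2a was 0.195 ± 0.0986 in combination livers and 0.354 ± 0.0967 in vehicle livers. It ran from 0.0623 to 0.339 in combination livers and from 0.200 to 0.496 in vehicle livers. This ratio is given with no test and was not computed without livers 4_5 and 5_5. Of the possible 50-base reads of Ces2c, 36.1% match another gene.

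**Figure D2:**
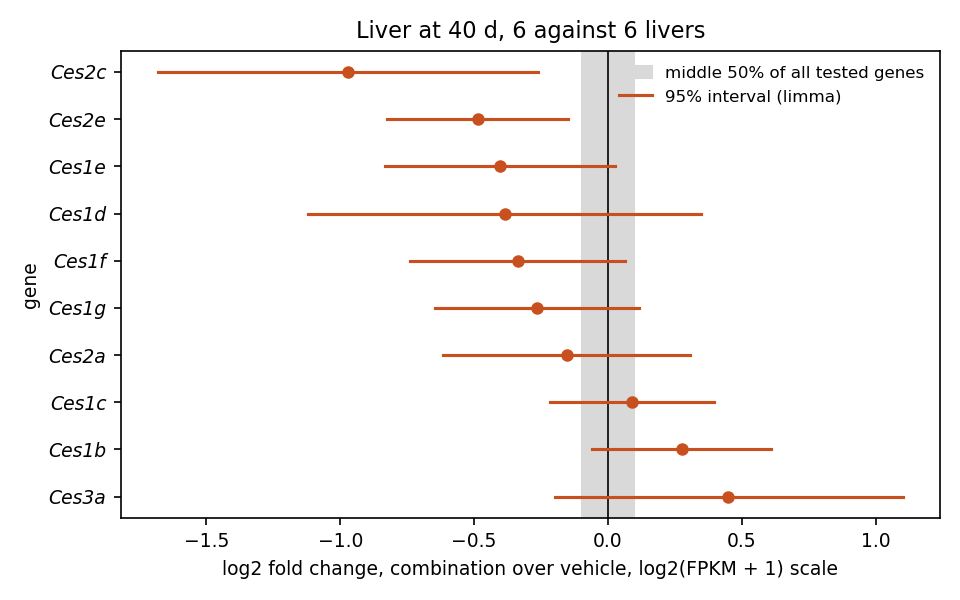
Log2 fold change, combination over vehicle, of each carboxylesterase in liver at 40 d (horizontal axis, log2(FPKM + 1) scale), with its 95% interval from limma (lines, 6 against 6 livers). The grey band spans the middle of all 10995 tested genes, from −0.096 to 0.097. The intervals of Ces2c and Ces2e lie below 0 and the other 8 cross it.

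Among the Ces1 enzymes, the secreted Ces1c had 465.6, 691.0 and 823.6 FPKM as the lowest, median and highest of the combination livers, and 556.9, 615.5 and 716.7 FPKM in the vehicle livers. The combination group was the wider one, with livers both below and above the whole vehicle range. Its log2 fold change was 0.09 (SE 0.14, 95% interval −0.22 to 0.40, limma adjusted p = 0.820), and it turned to −0.02 with quantile scaling. Ces1b, the near copy of Ces1c without a retention signal, had 17.4, 27.5 and 31.3 FPKM in combination livers and 16.0, 20.8 and 23.3 FPKM in vehicle livers. Combination 5_1 to 5_4 lay above every vehicle liver and 4_5 and 5_5 within the vehicle range. The log2 fold change was 0.28 (SE 0.16; limma adjusted p = 0.474). Without 4_5 and 5_5 it was 0.51 (limma adjusted p = 0.135). The ratio of Ces1b to Ces1c was 0.0377 ± 0.00355 in combination livers and 0.0329 ± 0.00249 in vehicle livers (SD, n = 6 each). Its ranges overlapped, at 0.0314 to 0.0418 in combination livers and 0.0287 to 0.0358 in vehicle livers. It is given with no test, and 11.6% of the possible 50-base reads of Ces1b match another gene.

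Ces1d, the triacylglycerol hydrolase that mobilises stored fat for very low density lipoprotein (VLDL), varied widely within both groups. It had 98.4, 328.6 and 414.4 FPKM as lowest, median and highest in combination livers, against 222.5, 374.3 and 559.7 FPKM in vehicle livers. Liver 4_5, at 98.4 FPKM, was the lowest of all 12, and the other 5 combination livers lay within the vehicle range. The log2 fold change was −0.38 (SE 0.34, 95% interval −1.12 to 0.35, limma adjusted p = 0.652). It was −0.09 without liver 4_5 and 0.04 without 4_5 and 5_5.

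Ces1e, known as egasyn, holds the lysosomal enzyme beta-glucuronidase in the endoplasmic reticulum of mouse liver. It had 27.1, 55.2 and 62.9 FPKM in combination livers and 53.3, 60.3 and 72.8 FPKM in vehicle livers as lowest, median and highest values (log2 fold change −0.40, SE 0.20, limma adjusted p = 0.407). Ces1f, which acts on stored triacylglycerol in mouse liver, had 50.4, 90.2 and 120.9 FPKM in combination livers, against 87.8, 104.3 and 114.1 FPKM in vehicle livers (log2 fold change −0.34, SE 0.19, limma adjusted p = 0.463). In both genes livers 4_5 and 5_5 stood far below the others, and without this pair the log2 fold changes were −0.07 and −0.04. Ces1g, whose loss in mice raises blood lipids, had 50.8, 97.9 and 125.2 FPKM in combination livers and 93.6, 109.9 and 131.0 FPKM in vehicle livers. Liver 5_5 alone lay far below the rest, and its log2 fold change, −0.26 (SE 0.18; limma adjusted p = 0.548), was −0.10 without it.

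Ces3a, described in mice as a male-predominant liver esterase, had 80.5, 137.4 and 344.4 FPKM as the lowest, median and highest of the combination livers. The vehicle livers had 67.1, 105.0 and 163.3 FPKM. Combination 5_3, at 344.4 FPKM, stood apart from the next liver, combination 5_4 at 171.3 FPKM, and its log2 fold change, 0.45 (SE 0.30, 95% interval −0.20 to 1.10, limma adjusted p = 0.548), was 0.20 without it. Its near copy Ces3b averaged 15.5 ± 8.77 FPKM in combination livers and 18.8 ± 8.53 FPKM in vehicle livers (SD, n = 6 each; log2 fold change −0.31, limma adjusted p = 0.734). The ratio of Ces3a to Ces3b was 10.9 ± 2.96 in combination livers, between 7.48 and 15.3, against 6.25 ± 1.39 in vehicle livers, between 5.01 and 8.61. This ratio was looked at after the values of both genes were seen, so it is given with no test, and the pair shares 25.6% of the possible 50-base reads of Ces3a.

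Looked at by mouse, liver 5_5 was the lowest of all 12 livers in 7 of the 10 members, and liver 4_5 lay below the vehicle mean in 10 of 10. The remaining combination livers lay below the vehicle mean in 3 to 5 members each. Markers of liver state were set beside these levels. Alb, the albumin gene, was at 11998.2 FPKM in liver 5_5, the lowest of 12, and at 18111.5 FPKM in liver 4_5, against 19203.4 to 24660.9 FPKM in vehicle livers. The summed level of 10 acute phase genes, which the liver makes in inflammation, was 31292.5 FPKM in liver 5_5 and 18729.2 FPKM in liver 4_5, against 5623.3 to 6709.9 FPKM in vehicle livers. Liver 5_3 had an Alb of 17223.1 FPKM, below that of 4_5, and an acute phase sum of 26525.9 FPKM. Its members did not all go the same way. The 10 together summed to 1928.0 FPKM, the highest of all 12 livers, with Ces3a at 344.4 FPKM. Its Ces2 members summed to 102.3 FPKM, against 127.9 to 163.9 FPKM in vehicle livers, and 5 of the 10 members lay below the vehicle mean. The remaining combination livers had acute phase sums of 5341.9 (5_2), 10573.2 (5_1) and 13490.6 FPKM (5_4). By limma, 0 of the 10 acute phase genes passed at an adjusted p under 0.05, while 10 of 10 were higher at an unadjusted p under 0.05 (median log2 fold change 1.74). Of all genes, 13.2% had such a p in either direction.

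Markers of immune cells also differed by mouse. The sum of 5 Kupffer cell markers was 1033.4 FPKM in liver 4_5, 292.2 to 413.6 FPKM in the other combination livers and 275.1 to 323.6 FPKM in vehicle livers. Its genes did not all spread alike. Cd5l averaged 301.6 ± 195.5 FPKM in combination livers and 189.9 ± 14.1 FPKM in vehicle livers. Marco averaged 29.4 ± 60.7 and 3.58 ± 2.94 FPKM in the same order, but Clec4f 64.0 ± 11.1 and 62.6 ± 7.94 FPKM. The sum of 5 neutrophil markers was 443.3 FPKM in liver 4_5 and 28.8 to 117.4 FPKM in the other combination livers, against 10.8 to 18.0 FPKM in vehicle livers. The hepatocyte marker sum was 28838.5 FPKM in liver 4_5 and 21462.3 FPKM in liver 5_5, both below every vehicle liver. The part of these markers in the levels of the esterases was not tested. Without livers 4_5 and 5_5, 5 members were higher and 5 lower in combination livers, the median log2 fold change of the 10 was −0.003, and 0 were called by limma (0.00926% of the 10802 genes tested). At an unadjusted p under 0.05 there were 4 of 10, beside 10.9% of all genes. Ces1b (log2 fold change 0.51) and Ces1c (0.28) were on the higher side, and Ces2c (−0.65) and Ces2e (−0.36) on the lower. This pair of livers was chosen after the levels of these same members were seen, and it held low levels of most of them. Leaving it out therefore moves the members by choice, so the 4 of 10 cannot be weighed against the 10.9%.

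**Figure D3:**
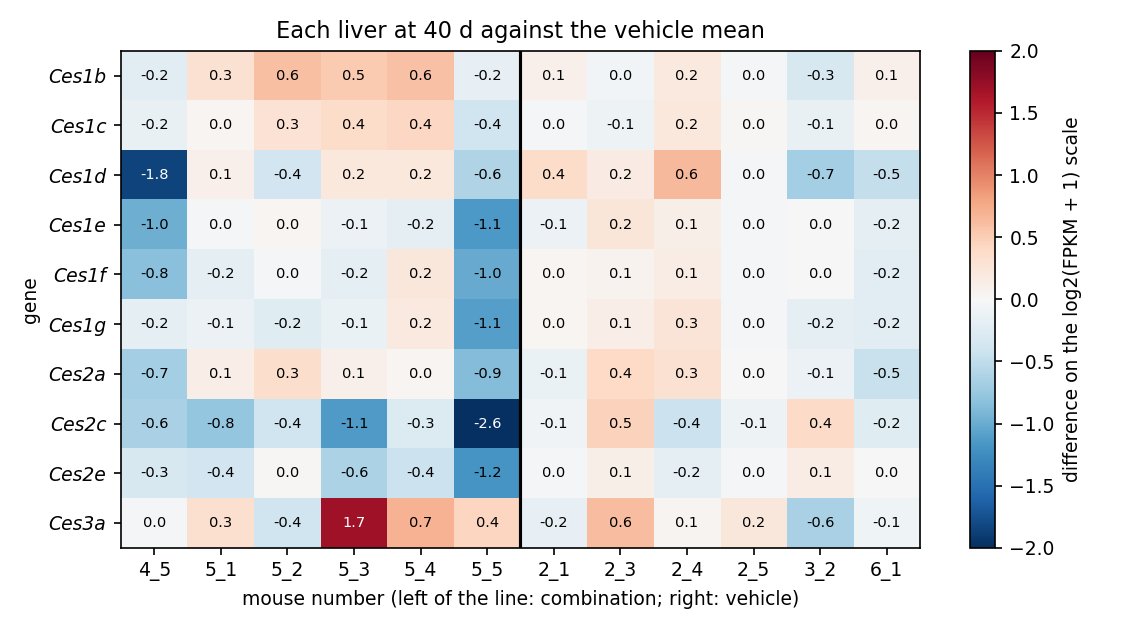
Difference of each liver from the vehicle mean on the log2(FPKM + 1) scale (colour and printed value) for the 10 carboxylesterases (rows) and the 12 livers at 40 d (columns, combination left of the line and vehicle right). Columns 4_5 and 5_5 are blue in nearly all rows, and Ces3a in 5_3 and Ces2c in 5_5 are the most extreme cells upward and downward.

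The members also varied with each other within the groups. Over the 12 livers, with each group's mean removed, Ces1e and Ces2a had a Pearson r of 0.954, Ces1b and Ces1c 0.917, Ces1e and Ces1f 0.906, Ces2c and Ces2e 0.906, and Ces3a and Ces3b 0.882. Without livers 4_5 and 5_5 these were 0.915, 0.878, 0.692, 0.742 and 0.900 in the same order. They are descriptions over libraries that share depth and scaling, and near copies can also share reads. Not all pairs went together. Ces2e had an r of −0.412 with Ces3a and −0.159 with Ces1d, and Ces2c −0.163 with Ces3a and −0.016 with Ces1d. Ces2a, of the same subfamily, had 0.239 with Ces3a and 0.671 with Ces1d.

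Among the genes outside the family, those most like each of the 3 most abundant members over the 12 livers, by Pearson r of the same deviations, were as follows. For Ces1c they were Mthfd1, a folate enzyme, at 0.887, Pipox, a peroxisomal amine oxidase, at 0.886 and Cyp3a25, a cytochrome P450, at 0.884. For Ces1d they were Gpr155 at 0.963, Slc25a38, a mitochondrial glycine carrier, at 0.961 and Homer2 at 0.942. For Ces3a they were Tst, a mitochondrial sulfurtransferase, at 0.929, Aggf1 at 0.928 and Cyp2c54, a cytochrome P450, at 0.922. These were picked as the highest of all tested genes and carry no test.

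Promoters could be compared where RefSeq lists them (GRCm38.p6), which was the case for 7 of the 10 members. Each sequence below runs from 250 bases before the start of transcription to 50 after it, and capitals mark the letters CCAAT or their reverse complement ATTGG. Ces1b has a second listed start, which is not shown. With the Ces1b start shown, the Ces1b and Ces1c promoters had the same base at 84.3% of the 300 positions after alignment. With the second start of Ces1b the share was 61.7%, so it depends on the start chosen. Both sequences shown hold ATTGG in the same surroundings. Likeness of promoters and of levels did not go together throughout. Ces2c and Ces2e, with an r of 0.906, shared 58.0% of positions, as did Ces1c and Ces1g. Ces2a shared more with Ces2c (66.7%) and Ces2e (61.0%) than these with each other. Ces1e and Ces2a, the pair with the highest r (0.954), shared 52.0%. The pairs of Ces1b with Ces1c and of Ces2c with Ces2e are shown because they varied together and were the most alike in coding bases (91.2% and 84.0%). CCAAT on either strand occurs in 37.4% of all 32851 listed promoters. The letters AGGTCA, searched on both strands, occur in 16.3% of all promoters and in none of these 4, and TATAAA occurs in 13.6% and in none of them. Among the listed members not shown, Ces2a holds 1 match to AGGTCA and Ces1g 1 match to TATAAA.
Ces1b (chr8:93079891-93080190, minus strand): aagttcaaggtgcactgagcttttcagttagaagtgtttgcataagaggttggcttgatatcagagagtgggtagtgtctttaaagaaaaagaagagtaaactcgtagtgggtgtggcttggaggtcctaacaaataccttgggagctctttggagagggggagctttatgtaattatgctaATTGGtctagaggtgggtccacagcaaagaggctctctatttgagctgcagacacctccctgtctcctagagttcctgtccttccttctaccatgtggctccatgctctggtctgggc
Ces1c (chr8:93131234-93131533, minus strand): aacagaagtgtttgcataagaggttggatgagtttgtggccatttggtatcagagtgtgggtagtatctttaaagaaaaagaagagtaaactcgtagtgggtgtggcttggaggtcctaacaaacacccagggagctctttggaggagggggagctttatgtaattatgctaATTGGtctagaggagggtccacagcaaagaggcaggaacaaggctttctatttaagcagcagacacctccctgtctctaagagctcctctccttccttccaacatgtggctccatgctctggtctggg
Ces2c (chr8:104846818-104847117, plus strand): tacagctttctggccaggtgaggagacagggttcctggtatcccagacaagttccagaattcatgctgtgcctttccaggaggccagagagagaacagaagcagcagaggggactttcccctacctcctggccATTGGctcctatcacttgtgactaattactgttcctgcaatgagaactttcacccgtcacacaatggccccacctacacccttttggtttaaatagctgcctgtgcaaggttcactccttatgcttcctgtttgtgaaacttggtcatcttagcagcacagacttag
Ces2e (chr8:104926010-104926309, plus strand): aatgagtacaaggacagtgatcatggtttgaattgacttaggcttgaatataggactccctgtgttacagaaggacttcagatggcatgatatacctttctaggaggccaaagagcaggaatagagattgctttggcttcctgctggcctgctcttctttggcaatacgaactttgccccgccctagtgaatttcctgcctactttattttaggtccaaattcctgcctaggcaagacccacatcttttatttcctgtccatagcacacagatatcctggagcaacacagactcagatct

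Other hydrolases and lipoprotein genes were set beside the members from lists of known function. In the family itself, 2 of the 10 other carboxylesterases reached the filter on low values in liver, Ces3b and Ces2g, and neither passed the test. Ces2g averaged 12.7 ± 2.22 FPKM in combination livers and 14.8 ± 0.805 FPKM in vehicle livers (limma adjusted p = 0.364). Of 21 tested genes of other esterases and lipid hydrolases, 15 were lower and 6 higher in combination livers (median log2 fold change −0.14), 0 passed limma's test and 6 were lower at an unadjusted p under 0.05. Over all genes, 7.35% were lower at that threshold. The smallest p-values were those of Lipa, Pnpla3 and Bche. Lipa, the lysosomal acid lipase, averaged 115.6 ± 10.7 FPKM in combination livers and 143.3 ± 11.1 FPKM in vehicle livers (limma adjusted p = 0.161). Pnpla3, a lipid droplet protein, averaged 1.54 ± 0.939 FPKM in combination livers and 3.20 ± 1.02 FPKM in vehicle livers (limma adjusted p = 0.200). Bche, the plasma butyrylcholinesterase, which in humans also hydrolyses aspirin, averaged 19.9 ± 3.93 FPKM in combination livers and 26.4 ± 4.45 FPKM in vehicle livers (limma adjusted p = 0.207).

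Of 9 genes of VLDL assembly, the route that Ces1d feeds, 7 were lower and 2 higher in combination livers (median log2 fold change −0.17), with 0 called and 3 lower at an unadjusted p under 0.05. The share of all genes lower at that threshold was 7.35%. Aadac is on this list and also on that of other esterases. Mttp, which loads lipid onto apolipoprotein B, averaged 44.1 ± 3.16 FPKM in combination livers and 54.9 ± 4.35 FPKM in vehicle livers (limma adjusted p = 0.121). Of 15 receptors and factors that control liver hydrolase genes, 11 were higher and 4 lower (median log2 fold change 0.08), with 0 called. At an unadjusted p under 0.05 there was 1 in each direction, beside 13.2% of all genes in either direction. These were Stat3, the factor of interleukin-6 signalling, at 13.9 ± 2.00 FPKM in combination livers and 10.4 ± 0.872 FPKM in vehicle livers (limma adjusted p = 0.131), and Nfe2l2, the oxidative stress factor Nrf2, at 28.6 ± 3.08 FPKM in combination livers and 34.2 ± 4.66 FPKM in vehicle livers (limma adjusted p = 0.296).

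In muscle at 40 d, Ces1d was the single member that passed the filter on low values (1 FPKM or more in 6 or more libraries). It had 46.6, 61.8 and 75.2 FPKM as the lowest, median and highest of the combination muscles, against 53.2, 57.5 and 90.7 FPKM in the vehicle muscles. The groups overlapped over most of their ranges. The log2 fold change was −0.07 (SE 0.16, limma adjusted p = 0.999), and 0 of 11708 genes (0.0%) were called in this tissue, with 3.85% at an unadjusted p under 0.05. Ces1f was next, at 0.783 ± 0.401 FPKM in combination muscles and 0.990 ± 1.10 FPKM in vehicle muscles (SD, n = 6 each). Its highest value was 3.18 FPKM in vehicle muscle 2_3. The other 8 members averaged at most 0.258 FPKM in combination muscles (Ces1e) and at most 0.479 FPKM in vehicle muscles (Ces1c).

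These levels were set beside markers of other tissues in the same muscles. The sum of 6 adipocyte markers was 279.8 to 1979.1 FPKM in combination muscles and 481.4 to 1498.0 FPKM in vehicle muscles. It was highest among vehicle muscles in 2_3, which also had the most Ces1d and Ces1f of all 12. Combination 5_5, with the highest sum of all 12, went the other way for Ces1d: its 50.8 FPKM lay below every vehicle muscle. Over the 12 muscles Ces1d had a Pearson r of 0.518 (Spearman rho 0.517) with that sum, and 0.773 without muscles 5_2 and 5_5, the farthest from its median. For Ces1f the r was 0.685 (rho 0.671), and 0.819 without that pair. Ces1f also went with the sum of 6 hepatocyte markers (r 0.604, rho 0.790), where Ces1d had an r of 0.224 (rho 0.308). Cyp2e1, which is among these markers, averaged 12.01 FPKM in combination muscles, where the sum averaged 19.28 FPKM. In vehicle muscles these means were 16.79 and 47.49 FPKM. At 24 h Cyp2e1 was at 12.2 FPKM in the combination muscle and 13.91 FPKM in the vehicle muscle, while Alb was at 5.32 and 66.7 FPKM. How far the relation of Ces1f with this sum reflects liver RNA was not tested. With the sum of 6 muscle fibre markers, Ces1d had an r of −0.752 and Ces1f of −0.699. These are 12 relations looked at together, over libraries that share a scaling, so they are descriptions.

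Vehicle muscle 3_2 held transcripts of the liver. Its Alb was 98.0 FPKM, against 1.94 to 11.6 FPKM in the other vehicle muscles and 1.58 to 14.2 FPKM in the combination muscles. In the same library Ces1c was at 2.62 FPKM, Ces3a at 1.57, Ces2a at 0.384 and Ces1g at 0.379 FPKM. In the other 11 muscles Ces1c was at most 0.243 FPKM, and Ces3a at most 0.187 FPKM. Without this library the log2 fold change of Ces1d in muscle was −0.11. Over the 12 mice the liver and muscle levels of Ces1d had a Pearson r of 0.316 and a Spearman rho of 0.448.

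**Figure D4:**
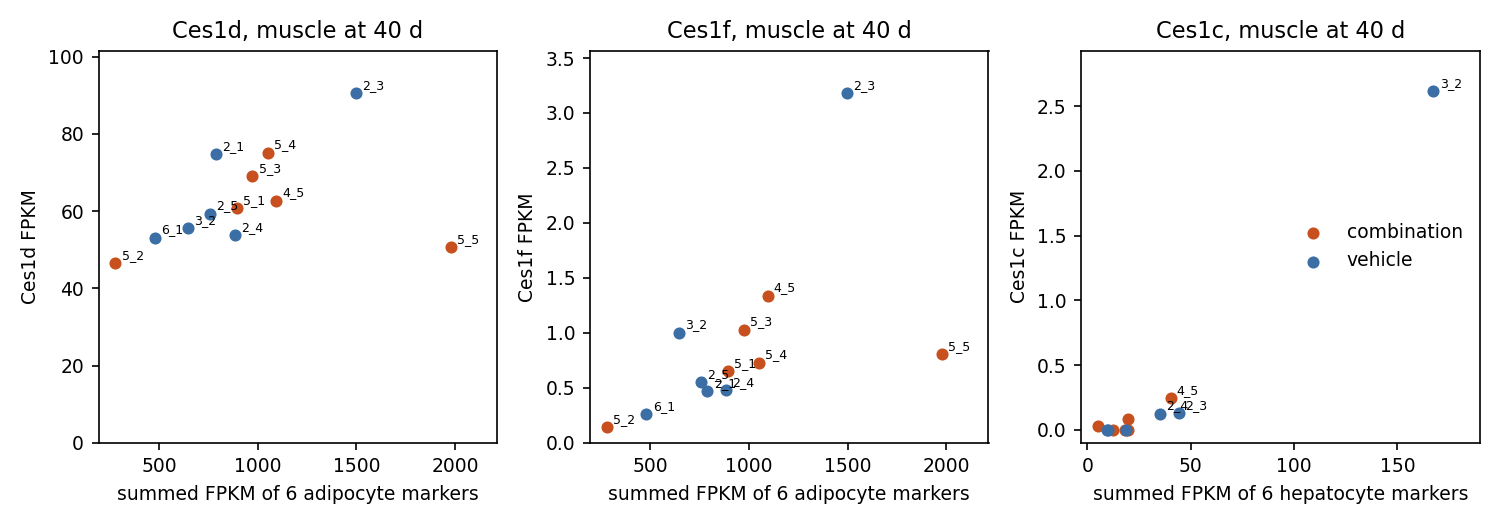
FPKM of Ces1d (left) and Ces1f (middle) against the summed FPKM of 6 adipocyte markers, and of Ces1c (right) against the summed FPKM of 6 hepatocyte markers, in the 12 muscles at 40 d (points with mouse numbers, combination and vehicle by colour). Vehicle 2_3 is the highest point for Ces1d and Ces1f, and vehicle 3_2 is alone at 2.62 FPKM for Ces1c.

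At 24 h there was 1 library per group and tissue, so there was no replicate check and no test was made. Intervals of ratios come from the recovered reads and an exact binomial interval at 95%, and cover counting error only. In liver, 0 of the 10 members lay past a 2-fold difference, where 1.94% of the 12353 genes averaging 1 FPKM or more did, on the log2(FPKM + 1) scale. As deposited, 6 members were higher and 4 lower in the combination liver, with ratios between 0.855 and 1.20. Divided by the total reads of each library, 1 was higher and 9 lower, with ratios between 0.759 and 1.07, because the authors' denominators differ from the totals, and the median log2 ratio of all genes then was −0.119 instead of 0.043. This rescaling multiplies the ratios of all genes by the same factor, so it moves the members no more than other genes.

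The order of the members by level was the same in both livers, and was that of the combination means at 40 d. Ces1c stood at 769.3 FPKM in the combination liver and 759.1 FPKM in the vehicle liver. Ces1d stood at 333.3 FPKM in the combination liver and 360.7 FPKM in the vehicle liver, a ratio of 0.924 (0.901 to 0.948). Ces3a, at 232.7 FPKM in the combination liver and 272.2 FPKM in the vehicle liver, had the lowest ratio, 0.855 (0.831 to 0.879). Ces1b had the highest ratio, 1.20 (1.07 to 1.35), at 22.6 FPKM in the combination liver and 18.8 FPKM in the vehicle liver. It was the 1 member that stayed above 1 with the total as denominator.

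The Ces2 members that were lowest against vehicle at 40 d were close to it at 24 h. Ces2c was at 5.62 FPKM in the combination liver and 5.53 FPKM in the vehicle liver, a ratio of 1.02 (0.828 to 1.25). Ces2e was at 78.6 FPKM in the combination liver and 72.0 FPKM in the vehicle liver, a ratio of 1.09 (1.04 to 1.15), and Ces2a at 50.1 FPKM in the combination liver and 52.5 FPKM in the vehicle liver. Whether these ratios differ from those at 40 d was not tested, since the tables were scaled separately. The pseudogene Ces2d-ps, which shares most with Ces2c, had 0 reads in the combination liver and 47 reads (1.75 FPKM) in the vehicle liver.

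In muscle at 24 h, 3 of the 10 members averaged 1 FPKM or more. Ces1d and Ces1f lay past 2-fold, where 3.68% of 12262 genes did. Ces1c also lay past it, but it reached that mean through the vehicle muscle alone. Its place past 2-fold was thus nearly fixed by the filter, and it is not set against that share. Ces1d was at 176.0 FPKM in the combination muscle and 81.8 FPKM in the vehicle muscle, a ratio of 2.15 (2.06 to 2.25). Ces1f was at 7.85 FPKM in the combination muscle and 1.95 FPKM in the vehicle muscle, a ratio of 4.02 (3.22 to 5.06). Ces1c was listed at 0 in the combination muscle and at 2.40 FPKM (88 reads) in the vehicle muscle. Ces3a likewise had 0 reads in the combination muscle and 26 reads in the vehicle muscle.

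Markers of other tissues differed between the same 2 muscle libraries. The sum of 6 adipocyte markers was 3189.1 FPKM in the combination muscle and 1598.3 FPKM in the vehicle muscle. Of its genes, Plin1, which coats lipid droplets, was at 186.1 FPKM in the combination muscle and 81.5 FPKM in the vehicle muscle, and Adipoq, the adiponectin gene, at 506.3 FPKM in the combination muscle and 299.5 FPKM in the vehicle muscle. The sum of 6 muscle fibre markers was 25819.9 FPKM in the combination muscle and 38986.6 FPKM in the vehicle muscle. Of these, Acta1, Tnnt3, Myh4 and Ckm were lower in the combination muscle. Mb, the myoglobin gene, was higher, at 1379.9 FPKM in the combination muscle and 570.5 FPKM in the vehicle muscle, as was Myh1, a fast myosin, at 808.0 FPKM in the combination muscle and 424.0 FPKM in the vehicle muscle. Alb was at 5.32 FPKM in the combination muscle and 66.7 FPKM in the vehicle muscle. The part of fat or liver RNA in the ratios of Ces1d, Ces1f and Ces1c was not tested.

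**Figure D5:**
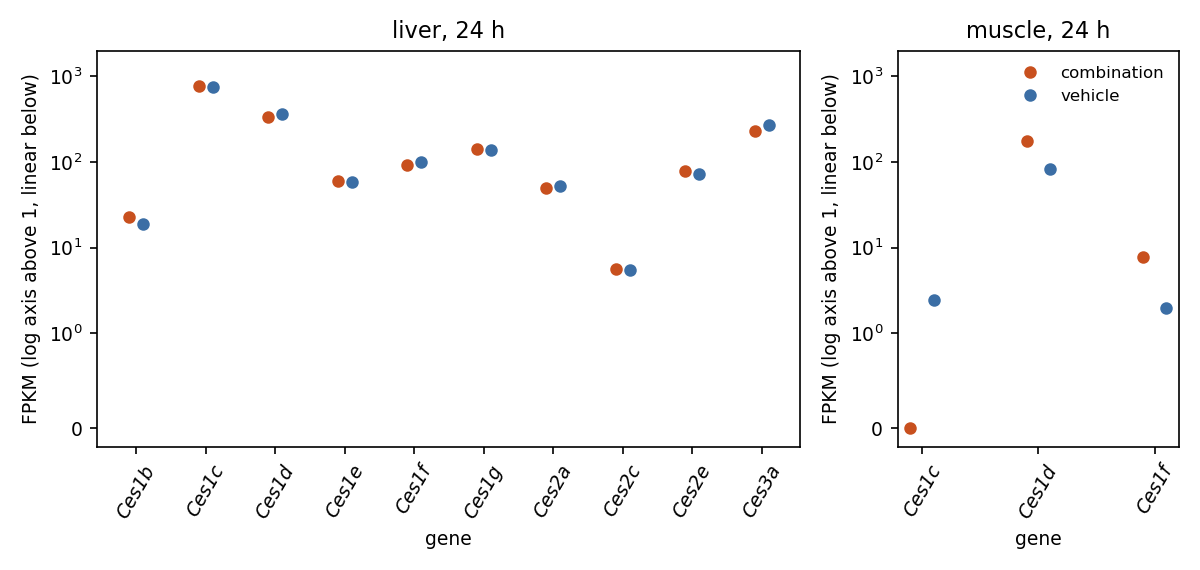
FPKM of the carboxylesterases at 24 h in liver (left panel, 10 genes) and muscle (right panel, the 3 genes that average 1 FPKM or more), on an axis that is logarithmic above 1 and linear below. Each point is 1 library, combination left and vehicle right. The liver pairs lie close together, Ces1d and Ces1f are higher in the combination muscle, and Ces1c is listed at 0 there.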

How the data were processed

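RNA was extracted with Trizol and sequenced from NEBNext Ultra RNA libraries, per the labels' protocols. The authors deposited 3 tables of FPKM values, per the file headers, and the submitters' processing notes name GRCm38 and mm10 as builds. The methods of aligning, counting and assigning reads to strands were not given in the sources used here. Every FPKM value was a whole number of reads (100% of values within 0.01 of a whole read), so reads were recovered with the exonic lengths in the tables. Each table was scaled on its own, and tests were made only within a table. In the livers at 40 d the denominator was 0.916 to 1.05 times the total of reads on genes.

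Within a tissue, a gene was tested if 6 or more of its 12 values reached 1 FPKM. The test was limma-trend (limma 3.58.1 in R 4.3.3) on log2(FPKM + 1), 6 against 6, two-sided, with Benjamini-Hochberg adjustment over all genes tested and a threshold of 0.05. The labels number the mice, and each library was treated as 1 mouse. The test was run on simulated reads as a check. Alternatives were a pseudocount of 0.1, no filter, a filter at 5 FPKM, quantile scaling, array weights, voom on recovered reads, an exact permutation test and leaving out each library. Leaving out livers 4_5 and 5_5 together, and scaling to total reads, were added after seeing the data. Every member is named, with at most 3 genes a list by p and the 3 genes most like each of the 3 most abundant members.

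Coding sequences came from GENCODE vM21 and promoters from RefSeq, and were compared with Biopython 1.88. Tables were handled in Python 3.11.15 with pandas 2.3.3, exact tests with SciPy 1.17.1 and figures with matplotlib 3.10.9. The members, gene lists and tests were chosen with earlier results of these data known.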

Additional observations from a re-analysis of the deposited data

Results flagged for a closer look

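Of 40 sets of 6 values (10 genes, 2 tissues, 2 groups), 9 held a value that stood far from its nearest neighbour for the range of its group, where chance gives about 1 in 20 for values with a normal spread. That rate need not hold in muscle, which gave 8 of the 9 and where most of these genes have few reads. In liver this was Ces3a in combination 5_3 at 344.4 FPKM. In muscle, vehicle 3_2 stood out in 4 genes, Ces1c at 2.615, Ces3a at 1.574, Ces2a at 0.3835 and Ces1g at 0.3788 FPKM, and this library had 98.0 FPKM of Alb. Combination muscle 4_5, with 14.2 FPKM of Alb, the highest of its group, stood out in Ces1c at 0.2429, Ces2a at 0.1435 and Ces1b at 0.02873 FPKM, the last of which is 1 read. Vehicle muscle 2_3, with the highest adipocyte marker sum of its group, stood out in Ces1f at 3.184 FPKM. The part of liver or fat RNA in these values was not tested.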

How the results depend on the processing

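No member was called at 40 d in either tissue under any setting. The count of called liver genes, 28, was 0 without a filter and 1 without livers 4_5 and 5_5, and leaving out 1 library gave 0 (combination 5_3 or vehicle 2_3) to 83 (combination 5_2). The count in muscle, 0, was 1 with a filter at 5 FPKM, with quantile scaling, with array weights and with total reads as denominator, and 0 to 1 without 1 library. The log2 fold change of Ces1c in liver turned to −0.0207 with quantile scaling. Without livers 4_5 and 5_5, that of Ces1d turned to 0.0372 and that of Ces2a to 0.16. In muscle, that of Ces1d was 0.0479 with array weights and, without 1 library, −0.138 to 0.0280. The causes were not tested. Ces2c and Ces2e stayed lower under all 20 alternatives to the test as reported, with log2 fold changes of −1.15 to −0.65 and −0.59 to −0.35. No paired analysis was possible because no mouse number occurs in both groups. Depth limits the members that lie below 1 FPKM in muscle, where a library holds few of their reads.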
